A study of Mus musculus with 6 samples.

Results

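The mitochondrial genome of the mouse encodes a small set of respiratory chain subunits, and 10 of its 13 protein-coding genes were followed here in the cerebellar libraries of KIKO and wild-type (WT) mice. The 10 genes were listed by name, with no threshold on their values: mt-Nd1, mt-Nd2, mt-Nd3, mt-Nd4 and mt-Nd5 of complex I, mt-Cytb of complex III, mt-Co1, mt-Co2 and mt-Co3 of complex IV, and mt-Atp6 of complex V. They were 10 of the 31053 genes in the count table. KIKO mice (knock-in knock-out) are a model of Friedreich ataxia that carries a knock-in allele and a knock-out allele in every cell type; WT mice were C57BL/6 littermates, and no other allele or agent is named for these libraries. The sample labels give cerebellum as the tissue, a kit for RNA of lipid-rich tissue and a stranded library kit, and no age, sex or treatment. The study's methods instead describe RNA of cells sorted from the cerebellum with antibodies to CD45 and CD11b, from mice of 6 months, 4 of each genotype, prepared with other kits, and also a butyrate diet. The labels and the methods thus differ on whether these libraries hold whole cerebellum or sorted cells, and every level below is read with that unsettled. Counts were used for 2 WT libraries (WT 1 and WT 2) and 3 KIKO libraries (KIKO 1, KIKO 2 and KIKO 3), and another WT sample was not analysed here. Nothing in the labels says that each library came from a separate mouse, so the p-values measure the spread between these libraries, which may be technical.

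Each mitochondrion keeps its own small circular genome, from which long transcripts are made and then cut into messenger, ribosomal and transfer RNAs. The proteins it encodes sit in the membrane-embedded cores of complexes I, III, IV and V, where electrons pass to oxygen and protons are pumped or let back to make ATP. The remaining subunits of these complexes, and all of complex II, are encoded in the nucleus and imported. Fragments of mitochondrial DNA have also been copied into the nuclear genome over time, and a read from an identical stretch has more than a single place of origin.

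The ends of several genes are shown first because the genes with under 100 counts among the 10 all ended in a stretch that annotated nuclear transcripts repeat. Each sequence is the sense strand of GRCm38 (the assembly also called mm10), on the plus strand of the mitochondrial chromosome, read from the GENCODE M21 transcripts. Capitals mark bases inside a 75-base window that an annotated nuclear transcript repeats without a mismatch, and lower case marks bases outside any such window. The first 4 are the last 75 bases of genes with under 100 counts in all 5 libraries together, then come those of mt-Cytb and mt-Nd1, and the last is the stretch of mt-Nd4 where its nuclear copy stops.
mt-Co2, chrM:7622-7696: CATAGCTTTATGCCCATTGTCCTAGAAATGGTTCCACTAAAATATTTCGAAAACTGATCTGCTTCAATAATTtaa
mt-Atp6, chrM:8533-8607: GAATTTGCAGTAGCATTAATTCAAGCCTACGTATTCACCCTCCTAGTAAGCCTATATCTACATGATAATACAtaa
mt-Co3, chrM:9316-9390: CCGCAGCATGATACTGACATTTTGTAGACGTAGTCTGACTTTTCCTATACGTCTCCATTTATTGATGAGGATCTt
mt-Nd3, chrM:9732-9806: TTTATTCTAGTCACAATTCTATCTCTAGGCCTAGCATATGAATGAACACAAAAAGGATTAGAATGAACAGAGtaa
mt-Cytb, chrM:15214-15288: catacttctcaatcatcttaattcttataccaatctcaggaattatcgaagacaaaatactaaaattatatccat
mt-Nd1, chrM:3633-3707: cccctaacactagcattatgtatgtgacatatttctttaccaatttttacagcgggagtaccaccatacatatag
mt-Nd4, chrM:10983-11102: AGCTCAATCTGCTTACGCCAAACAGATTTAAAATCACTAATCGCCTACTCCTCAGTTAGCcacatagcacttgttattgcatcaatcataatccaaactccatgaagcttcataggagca

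Total counts ran from 1013107 in KIKO 3 to 1351339 in WT 2, so 3 counts, the limit that a count of 0 allows, correspond to 2.22 to 2.96 CPM. Levels below are counts-per-million values (CPM) on library sizes scaled by TMM, and where genes are ranked by level the scale is CPM per kilobase of gene. KIKO 2 stood apart from the other libraries: its summed level of 6 long non-coding nuclear RNAs was 13634.7 CPM against 54061.2 to 67816.3 CPM in the rest, a sum carried by Malat1 and Meg3, while Neat1 and Miat were highest in KIKO 2. The 11 microglial markers were all detected, at a summed 5215.7 and 6643.5 CPM in WT 1 and WT 2 and 4554.6, 11761.7 and 5326.8 CPM in KIKO 1, KIKO 2 and KIKO 3. Markers of neurons (7 of 7 detected, a summed 1940.9 to 4163.3 CPM) and of choroid plexus (4 of 4, 6530.5 to 13976.7 CPM, nearly all of it Ttr) were present too, so the libraries did not hold RNA of microglia alone. In such bulk RNA, fewer cells of a type and less RNA per cell cannot be told apart.

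The 10 genes together took 4.32% of all counts in WT 1 (95% Wilson interval 4.28 to 4.36%) and 7.62% in WT 2 (7.58 to 7.67%). In the KIKO libraries their share was 3.79% in KIKO 1 (3.76 to 3.83%), 8.77% in KIKO 2 (8.72 to 8.81%) and 4.12% in KIKO 3 (4.09 to 4.16%). The libraries numbered 2 of each genotype were high, and the other 3 were low, so the genotypes overlapped from end to end. The WT libraries averaged 5.97% ± 2.34 (SD, n = 2), the KIKO libraries 5.56% ± 2.78 (SD, n = 3), a difference of -0.41 percentage points against a pooled SD of 2.64. Its sign depended on single libraries: it was 1.24 points without WT 2, 0.47 without KIKO 1 and 0.31 without KIKO 3. These intervals and the limit for a count of 0 cover counting error only. Most of the share came from 4 genes, as the plot of shares by library shows.

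**Figure D1:**
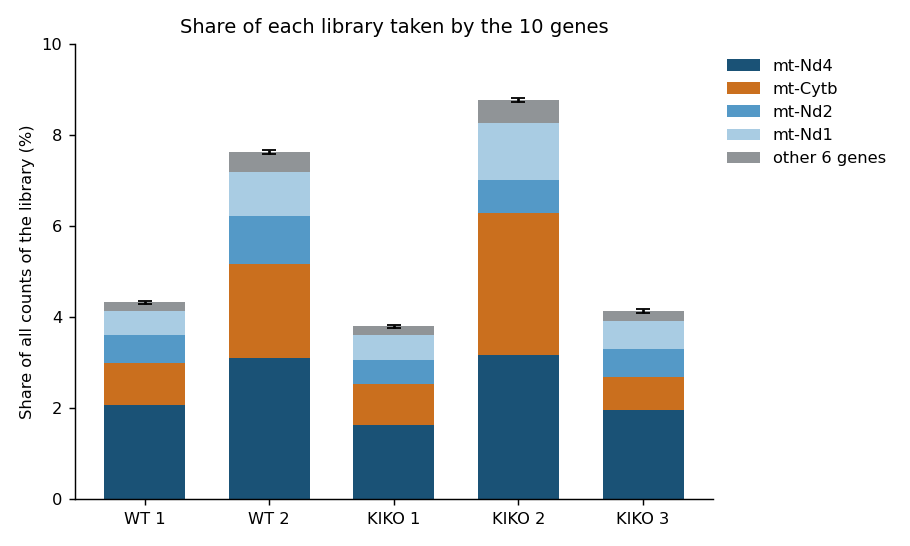
Percentage of all counts in each of the 5 libraries (horizontal axis) that fell on the mitochondrially encoded genes, stacked by gene. The stacks of WT 2 and KIKO 2 reach 7.62% and 8.77%, those of the other libraries lie between 3.79% and 4.32%, and mt-Nd4 and mt-Cytb make up most of each.

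The levels of the genes spanned several orders of magnitude. Per kilobase, the mean over the 5 libraries was 17182.7 CPM for mt-Nd4 and 13398.7 CPM for mt-Cytb, then 8049.5 CPM for mt-Nd1, 6840.8 CPM for mt-Nd2, 992 CPM for mt-Nd5 and 802 CPM for mt-Co1. At the other end were mt-Nd3 at 43.7 CPM per kilobase, mt-Atp6 at 5.85, mt-Co2 at 4.69 and mt-Co3 at 2.57. Several neighbors in that order changed places between libraries: mt-Cytb exceeded mt-Nd4 per kilobase in KIKO 2 (25932.5 against 21700.0 CPM) and in no other library, mt-Nd2 exceeded mt-Nd1 in both WT libraries and in no KIKO library, and mt-Co1 exceeded mt-Nd5 in KIKO 3 alone. The step from mt-Co1 to mt-Nd3 did not, since the lowest mt-Co1 level, 483 CPM per kilobase in WT 1, was above the highest of mt-Nd3, 107.5 in KIKO 2. Within complex IV, mt-Co1 had 7586 counts in all libraries together while mt-Co2 had 19 and mt-Co3 had 12. These genes have 1545, 684 and 784 bases.

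Complex I takes electrons from NADH, and 5 of the genes encode parts of its membrane arm. The most abundant of all, mt-Nd4 (chrM:10167-11544), stood at 21213.9 CPM in WT 1, 31300.4 in WT 2, 16206.2 in KIKO 1, 29902.7 in KIKO 2 and 19765.9 in KIKO 3. WT 2 and KIKO 2 were the highest libraries, and the genotypes overlapped. The log2 fold change of KIKO over WT was -0.26 (SE 0.62, 95% interval -1.67 to 1.16), with an adjusted p of 0.9999 in edgeR. For mt-Nd1 (chrM:2751-3707) the levels were 5287.5 and 9755.5 CPM in WT 1 and WT 2, and 5422.3, 11944.1 and 6107.6 CPM in KIKO 1, KIKO 2 and KIKO 3. The same libraries were high, and the log2 fold change was 0.06 (SE 0.59, interval -1.30 to 1.41).

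Among the KIKO libraries the pattern was weakest for mt-Nd2 (chrM:3914-4951), which stood at 6298.9 CPM in WT 1, 10681.4 in WT 2, 5243.2 in KIKO 1, 6896.0 in KIKO 2 and 6384.2 in KIKO 3. Here KIKO 2 was only just above KIKO 3, and WT 2 was the highest library. For mt-Nd2 the WT mean of 8490.2 CPM ± 3098.9 (SD, n = 2) stood against a KIKO mean of 6174.4 CPM ± 846 (SD, n = 3), a log2 fold change of -0.46 (SE 0.51, interval -1.63 to 0.71), the lowest of the 7 genes tested. This estimate for mt-Nd2 was -0.80 without WT 1 and -0.05 without WT 2. For mt-Nd5 (chrM:11742-13565) the levels were 1286.9 and 2792.1 CPM in WT and 1136.5, 2634.0 and 1199.7 CPM in KIKO, in the order of the library numbers. WT 2 and KIKO 2 were again high, and the log2 fold change was -0.30 (SE 0.56, interval -1.58 to 0.98). The least abundant complex I gene tested, mt-Nd3 (chrM:9459-9806), had 5 and 27 counts in WT 1 and WT 2 and 7, 49 and 8 in KIKO 1, KIKO 2 and KIKO 3. Its highest level was 7.60 times its lowest, and its log2 fold change was 0.42 (SE 0.98, interval -1.83 to 2.67).

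Cytochrome b, the product of mt-Cytb (chrM:14145-15288), is the mitochondrially encoded subunit of complex III, which passes electrons from ubiquinol to cytochrome c. Its level was 9549.7 CPM in WT 1, 21068.5 in WT 2, 9006.3 in KIKO 1, 29666.8 in KIKO 2 and 7349.3 in KIKO 3. KIKO 1 and KIKO 3 lay below both WT libraries while KIKO 2 lay above both, a range of 4.04 times from the lowest library to the highest. The log2 fold change was 0.00 (SE 0.78, interval -1.77 to 1.78), the widest interval among the genes with over 100 counts. Without KIKO 2, the estimate for mt-Cytb became -0.91 (SE 0.35, unadjusted p = 0.0139, adjusted p = 0.489 by edgeR), past the study's thresholds, which ask for more than 0.75 in either direction on the log2 scale together with p below 0.05 before adjustment. The same was true of mt-Nd5, at -0.81 (SE 0.30, unadjusted p = 0.0117, adjusted p = 0.473 by edgeR). In that comparison, which still held WT 2, 6.45% of all genes passed those thresholds. With WT 2 also left out the estimates were -0.22 for mt-Cytb and -0.14 for mt-Nd5, 0 of the tested genes among the 10 passed, and 8.47% of all genes did.

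Complex IV reduces oxygen to water, and mt-Co1 (chrM:5328-6872) encodes its catalytic subunit. The level of mt-Co1 was 747 CPM in WT 1, 1541.8 in WT 2, 848 in KIKO 1, 2005.1 in KIKO 2 and 1056.3 in KIKO 3. Both libraries numbered 2 were high once more, with a log2 fold change of 0.19 (SE 0.54, interval -1.04 to 1.41). The copper-binding subunit gene mt-Co2 (chrM:7013-7696) had 3 and 8 counts in WT 1 and WT 2 and 2, 2 and 4 counts in KIKO 1, KIKO 2 and KIKO 3. For mt-Co3 (chrM:8607-9390) the counts were 0 and 5 in WT and 2, 1 and 4 in KIKO. In complex V, the ATP synthase, mt-Atp6 (chrM:7927-8607) encodes the subunit that lines the proton channel, and it had 1 and 5 counts in WT and 14, 3 and 2 in KIKO. These last 3 genes were at or near the counting limit in most libraries, overlapped between genotypes and were too low to pass the filter of the test. With every gene that had a count kept, their log2 fold changes were -0.93 (SE 1.66) for mt-Co2, 0.08 (SE 2.08) for mt-Co3 and 1.04 (SE 1.55) for mt-Atp6, so a difference in them was not detectable at this depth. The plot of levels by library sets the 10 genes side by side.

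**Figure D2:**
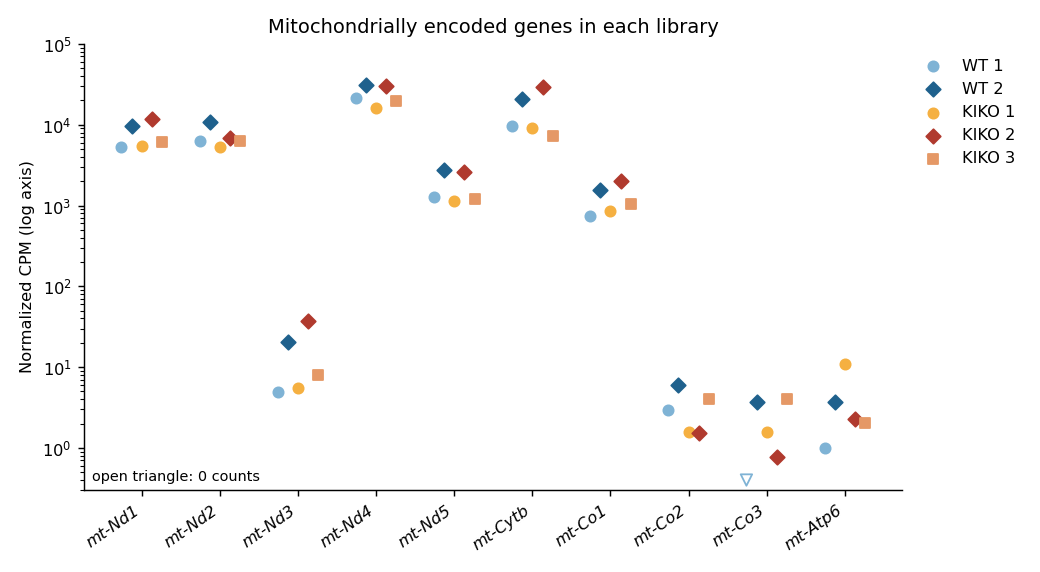
Level of each of the 10 genes in each of the 5 libraries, in normalized CPM on a log axis, with a marker per library. In the 7 genes with enough counts for a test the diamonds of WT 2 and KIKO 2 lie above the markers of the other libraries, and mt-Co2, mt-Co3 and mt-Atp6 lie near the counting limit of 3 counts.

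Across the genes as a group, KIKO and WT did not separate. Of the 7 tested, 0 passed both of the study's thresholds, where 1.2% of all 10889 genes tested did (131 genes), and edgeR gave 0 of the 7, and 0 of all genes, an adjusted p under 0.05. By an unadjusted p under 0.05 alone the count was also 0 of 7, and at the study's thresholds DESeq2 called 0 of 7 beside 1.25% of all genes and limma 0 of 7 beside 1.16%. The genotypes overlapped in 7 of 7, where they did not overlap in 16.7% of all genes tested. The log2 fold change was above 0 in 4 and below 0 in 3, beside 5647 above 0 of all 10889 genes tested. Its median was 0.00 against 0.02 over all genes tested. Each of the 7 intervals of 95% reached past 1 on the log2 scale in at least 1 direction.

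**Figure D3:**
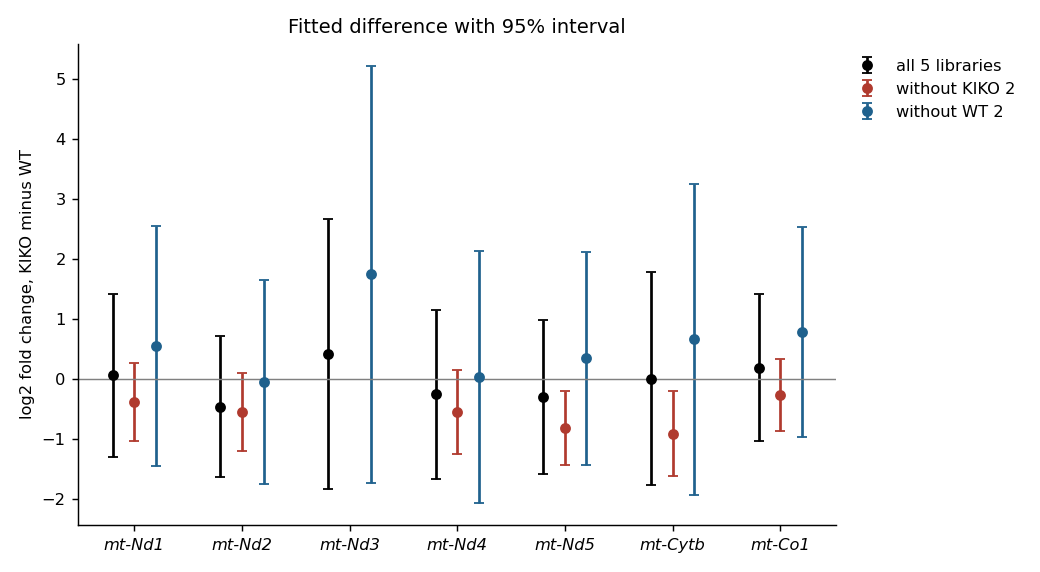
Log2 fold change of KIKO over WT for the genes tested, as edgeR estimates (points) with 95% intervals (bars), from all 5 libraries, without KIKO 2 and without WT 2. The intervals from all 5 libraries cross 0, and the estimates for mt-Cytb and mt-Nd5 without KIKO 2 are -0.91 and -0.81; mt-Nd3 was too low to be tested without KIKO 2.

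The spread lay between libraries of the same genotype. In all 7 tested genes, both WT 2 and KIKO 2 exceeded each of the other 3 libraries, a pattern shared by 1994 of all 10889 genes tested, or 18.31%. The level in WT 2 exceeded that in WT 1 by a median of 1.04 on the log2 scale over the 7 genes, and KIKO 2 exceeded the mean of KIKO 1 and KIKO 3 by a median of 1.08, while the medians over all genes were 0.00 and -0.05. By gene, the WT difference ran from 0.56 for mt-Nd4 to 1.84 for mt-Nd3, and the KIKO difference from 0.25 for mt-Nd2 to 2.33 for mt-Nd3. Summed over the 10 genes, the level was 44392.6 and 77173.3 CPM in WT 1 and WT 2 and 37881.5, 83090.6 and 41881.1 CPM in KIKO 1, KIKO 2 and KIKO 3.

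Other RNAs moved with these libraries. The 4 oligodendrocyte markers, all detected, summed to 4683.4 and 10401.3 CPM in WT 1 and WT 2 and to 4004.6, 16724.4 and 4822.7 CPM in KIKO 1, KIKO 2 and KIKO 3, high in the same libraries as the mitochondrial genes. Summed markers of blood, endothelium, astrocytes and choroid plexus were also higher in WT 2 and KIKO 2 than in the other libraries: 2703.7 and 2879.0 CPM against 1012.4 to 1861.7 for blood, 703 and 570 against 350 to 392 for endothelium, 245 and 277 against 129 to 206 for astrocytes, and 11514.5 and 13976.7 against 6530.5 to 10479.5 for choroid plexus. Each of these lists held 4 genes, all detected in at least 1 library. The microglial markers were also highest in KIKO 2 and next in WT 2, with 9 of 11 higher in WT 2 than in WT 1. The summed neuronal markers went the other way, at 2608.6 CPM in WT 2 and 1940.9 CPM in KIKO 2 against 3873.8 to 4163.3 CPM in the rest. Pcp2 did not follow this sum, with 39.7 CPM in WT 2 against 34.4 in WT 1, and 57.2 in KIKO 2 against 50.1 in KIKO 3. Stmn2 was no lower in WT 2 than in KIKO 1 and KIKO 3. The summed nuclear RNAs were lowest in KIKO 2 and next in WT 2, although Malat1 was higher in WT 2 than in KIKO 1 and KIKO 3, and Neat1 and Miat were highest in KIKO 2. The part of each of these in the levels of the mitochondrial genes was not tested. The plot of summed list levels shows them together.

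**Figure D4:**
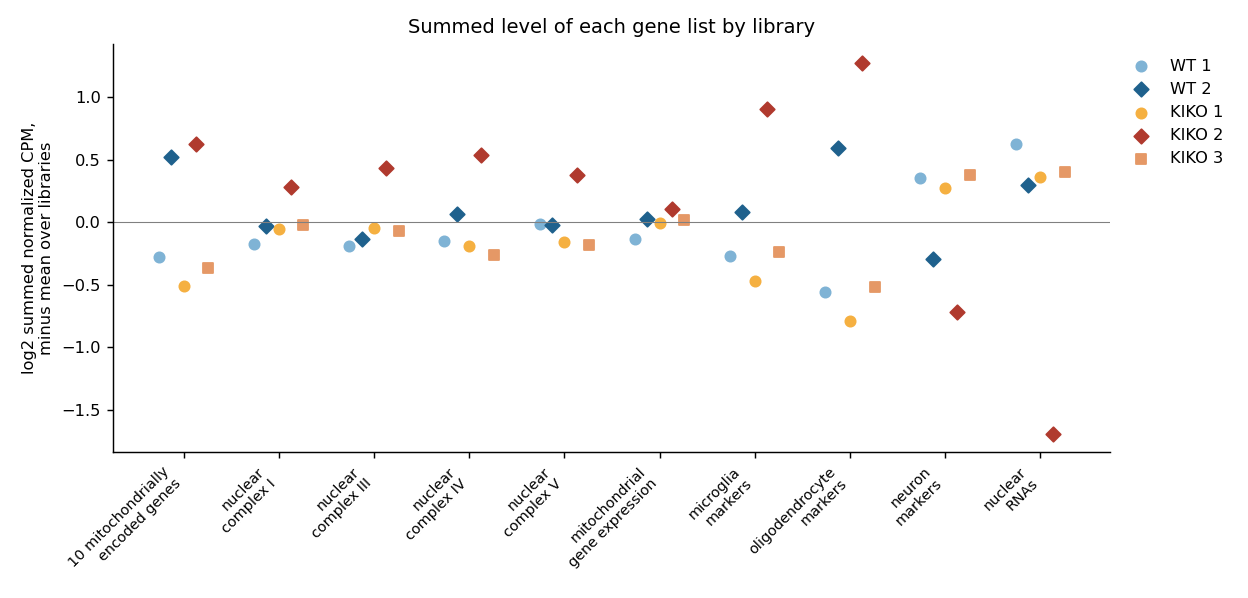
Summed level of each gene list in each library as log2 normalized CPM minus its mean over the 5 libraries, with a marker per library. The diamonds of WT 2 and KIKO 2 are high for the 10 mitochondrial genes and the oligodendrocyte markers and low for the neuron markers, and KIKO 2 is lowest for the summed nuclear RNAs at 13634.7 CPM.

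The genes also differed in their proportions to each other, which do not depend on how large the mitochondrial share of a library is. Of all counts on the 10 genes, mt-Nd4 took 47.8% in WT 1, 40.6% in WT 2, 42.8% in KIKO 1, 35.99% in KIKO 2 and 47.2% in KIKO 3, and mt-Cytb took 21.5%, 27.3%, 23.8%, 35.7% and 17.6% in the same order. The proportion of mt-Nd4 was lowest, and that of mt-Cytb highest, in KIKO 2 and then in WT 2, so that the count of mt-Nd4 was 2.22 times that of mt-Cytb in WT 1, 1.49 in WT 2, 1.80 in KIKO 1, 1.01 in KIKO 2 and 2.69 in KIKO 3. KIKO 2 also had the lowest proportion of mt-Nd2, 8.30% against 13.8 to 15.2% in the other libraries. The libraries therefore differed in the mixture of these RNAs as well as in their amount.

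In these proportions 2 of the 10 genes did not overlap between the genotypes, mt-Nd1 and mt-Co1, and they were singled out after the values were seen. The proportion of mt-Nd1 was 11.9% and 12.6% in WT 1 and WT 2 and 14.3%, 14.4% and 14.6% in KIKO 1, KIKO 2 and KIKO 3, with means of 12.3% ± 0.52 (SD, n = 2) and 14.4% ± 0.14 (SD, n = 3). For mt-Co1 it was 1.68% and 1.998% in WT and 2.24%, 2.41% and 2.52% in KIKO, with means of 1.84% ± 0.22 (SD, n = 2) and 2.39% ± 0.14 (SD, n = 3). In each case the KIKO libraries were all higher, KIKO 2 among them. Measured relative to the summed counts of the 10 genes, 11.7% of all genes tested did not overlap between the genotypes. Since the proportions add up to a fixed whole, higher values of some genes go with lower values of others.

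The genes with the lowest counts among the 10 were those repeated over nearly their whole length by an annotated nuclear transcript. The share of 75-base windows that an annotated nuclear transcript repeats was 99.5% for mt-Co2, 99.5% for mt-Atp6, 99.9% for mt-Co3 and 97.8% for mt-Nd3, and it was 0% for mt-Cytb and mt-Nd1, 1.66% for mt-Nd5 and 5.71% for mt-Nd2. The copies of the first 4 lie in a row of 7 annotated pseudogenes on the minus strand of chr1:24611535-24616197, from Gm29216, which matches the end of mt-Co1, to Gm28439, which matches the start of mt-Nd4. In that row Gm28661 was identical to mt-Co2 over all its 681 bases, Gm10925 to mt-Atp6 over 678 and Gm28437 to mt-Co3 over 783. In mt-Nd4 the repeated stretch covers the first 876 of 1378 bases and none of the last 300, and the printed sequence of mt-Nd4 shows where it stops.

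The relation was not a strict one. In mt-Co1, 39.8% of all windows and every window in the last 300 bases are repeated, by Gm29216 on chromosome 1 and Gm13340 on chromosome 2, yet it had 802 CPM per kilobase. In mt-Nd2, 24.3% of the windows in the last 300 bases are repeated by Gm13339 on chromosome 2, and it was among the 4 most abundant genes. Of the other 3 protein-coding genes, mt-Nd4l, of which 98.7% of windows are repeated by Gm10222, had 0 counts in all 5 libraries. For mt-Atp8, with 0% repeated, there were 2 counts in all libraries together; this gene is short, 204 bases, and overlaps mt-Atp6 by 43 bases. The remaining gene, mt-Nd6, also had 0% repeated and had 12 to 109 counts.

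The counts of mt-Co1, mt-Co2, mt-Co3, mt-Atp6, mt-Nd3 and, in part, mt-Nd4 and mt-Nd2 are therefore uncertain as measures of RNA level, because how reads that match several places were counted is not given in the sources used here. None of the 12 pseudogenes was among the genes with counts here, and neither were the ribosomal and transfer RNA genes of the mitochondrial genome, so their levels are not known. The search covered annotated nuclear transcripts and not the whole genome, so a repeated share is a minimum. What part the copies have in the counts was not tested. The plot of repeated ends against level shows all 13 genes.

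**Figure D5:**
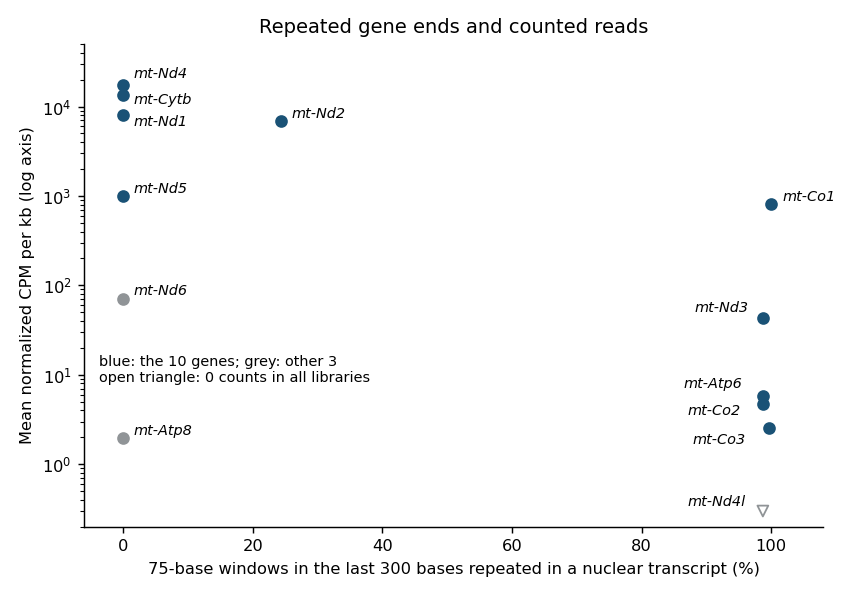
Mean level over the 5 libraries, in normalized CPM per kilobase on a log axis, against the percentage of 75-base windows in the last 300 bases of each gene that an annotated nuclear transcript repeats. The 5 genes with 0 to 24.3% repeated among the 10 lie between 992 and 17182.7 CPM per kilobase, and the 5 with 98.7% or more lie at 802 CPM or less; mt-Nd4l, listed at 0, is drawn as an open triangle at the bottom.

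The gene mt-Nd6 is the protein-coding gene on the opposite strand of the mitochondrial genome (chrM:13552-14070, minus strand), and it overlaps mt-Nd5 by 14 bases. Its level was 11.8 CPM in WT 1, 40.5 in WT 2, 19.5 in KIKO 1, 83.2 in KIKO 2 and 30.1 in KIKO 3. It was high in the libraries numbered 2 as the genes of the other strand were, with a log2 fold change of 0.75 (SE 0.76, interval -0.98 to 2.47). Without KIKO 2 the estimate for mt-Nd6 was -0.13.

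The summed level of the nuclear-encoded respiratory chain subunits spanned a narrower range, while single subunit genes such as Sdhc ranged widely. Summed over 80 genes, they stood at 6678.7 and 7200.9 CPM in WT 1 and WT 2 and at 6693.6, 9466.6 and 6687.9 CPM in KIKO 1, KIKO 2 and KIKO 3. KIKO 2 was the highest library here as well, whereas WT 2 was only slightly above WT 1, and 46 of the 80 genes were higher in WT 2 than in WT 1. The 10 mitochondrial genes exceeded these nuclear subunits in summed CPM by 6.65 times in WT 1, 10.7 in WT 2, 5.66 in KIKO 1, 8.78 in KIKO 2 and 6.26 in KIKO 3. Both WT 2 and KIKO 2 exceeded the other libraries in 25 of the 75 nuclear subunit genes tested, against 7 of 7 mitochondrial genes tested. From WT 1 to WT 2 the median difference on the log2 scale was 0.22 for nuclear complex I genes, 0.22 for complex II, -0.02 for complex III, 0.22 for complex IV and -0.10 for complex V.

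Between the genotypes, 0 of the 97 nuclear genes tested from the lists for the respiratory chain and for mitochondrial gene expression passed the thresholds, beside 1.2% of all genes. The smallest unadjusted p among them was 0.0799, and edgeR gave none of them an adjusted p under 0.05. The log2 fold change was above 0 in 26 of 36 complex I genes (median 0.16), 1 of 3 complex II genes (median -0.23) and 8 of 9 complex III genes (median 0.20). It was above 0 in 6 of 12 complex IV genes (median 0.12) and 10 of 15 complex V genes (median 0.05). Over all genes tested it was above 0 in 5647 of 10889, with a median of 0.02. For the genes of mitochondrial transcription, translation and RNA handling, it was above 0 in 11 of 22 (median 0.00 after rounding). The genes named below had the smallest p of their lists, a choice that favors genes whose genotypes do not overlap. Over all genes tested, the genotypes did not overlap in 16.7%.

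Among the nuclear genes of complex I, the accessory subunit gene Ndufc1 had the smallest p. Its level was 55.1 and 48.7 CPM in WT 1 and WT 2 and 94.3, 105.3 and 67.2 CPM in KIKO 1, KIKO 2 and KIKO 3. All KIKO libraries were above both WT libraries, with a log2 fold change of 0.78 (SE 0.39, unadjusted p = 0.0799, adjusted p = 0.9999 in edgeR). Ndufs8, which encodes an iron-sulfur subunit, had 42.3 and 30.7 CPM in WT and 28.8, 4.58 and 19.0 CPM in KIKO. For Ndufs8 all KIKO libraries were below both WT libraries. Its log2 fold change was -1.06 (SE 0.70), or -0.59 without KIKO 2 and -1.64 without KIKO 1. The accessory subunit gene Ndufc2 overlapped between genotypes, with a WT mean of 53.3 CPM ± 5.39 (SD, n = 2), a KIKO mean of 95.4 CPM ± 72.5 (SD, n = 3) and 179 CPM in KIKO 2. The log2 fold change of Ndufc2 was 0.85 (SE 0.61), or 0.02 without KIKO 2.

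In complex II, Sdhb, the iron-sulfur subunit gene, had 68.9 and 50.2 CPM in WT 1 and WT 2 and 75.6, 127.5 and 100.2 CPM in KIKO 1, KIKO 2 and KIKO 3. The genotypes did not overlap, and the log2 fold change was 0.77 (SE 0.41, unadjusted p = 0.0937, adjusted p = 0.9999 in edgeR). Sdhc, a membrane anchor gene, had 56.1 and 74.9 CPM in WT and 28.8, 124.4 and 13.0 CPM in KIKO, so that KIKO 2 was the highest library and the other KIKO libraries the lowest. Its log2 fold change was -0.23 with all libraries. Without KIKO 2 it was -1.62 (unadjusted p = 0.000414 in edgeR), past the study's thresholds, as it was without both libraries numbered 2, at -1.38 (unadjusted p = 0.00158). In those comparisons 7 of 95 and 9 of 96 of the nuclear genes tested passed, with 0 and 1 past an adjusted p of 0.05, beside 6.45% and 8.47% of all genes. Sdha, the flavoprotein gene, overlapped between the genotypes, with a log2 fold change of -0.38 (SE 0.39), or -0.18 without KIKO 2 and -0.59 without KIKO 3.

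In complex III, Cyc1, the cytochrome c1 gene, had 38.4 and 34.5 CPM in WT 1 and WT 2 and 56.1, 60.3 and 52.1 CPM in KIKO 1, KIKO 2 and KIKO 3, with a log2 fold change of 0.63 (SE 0.40). The small subunit gene Uqcr10 had a log2 fold change of 0.70 (SE 0.41), or 0.41 without KIKO 2, and Uqcrb of 0.82 (SE 0.58), or 0.07 without KIKO 2. The genotypes did not overlap for Cyc1 and Uqcr10, with KIKO higher, beside 16.7% of all genes tested without overlap. They overlapped for Uqcrb, an exon of which overlaps Gm10767 on the opposite strand. In complex IV, Cox7a2 had 121 and 123 CPM in WT and 153, 189 and 182 CPM in KIKO, without overlap and with a log2 fold change of 0.52 (SE 0.35). For Cox6b1 the WT libraries were the higher, at 120 and 126 CPM against 81.8, 104.6 and 108.2 CPM, with a log2 fold change of -0.33 (SE 0.35), or -0.21 without KIKO 1. Cox7b overlapped between the genotypes, at 0.54 (SE 0.50), or -0.05 without KIKO 2. In complex V all 3 genes named by their p overlapped: Atp5f1 at 0.99 (SE 0.63), Atp5k at 0.57 (SE 0.39) and Atp5e at 0.55 (SE 0.48) in log2 fold change. Leaving out single libraries took Atp5f1 from 0.28 (without KIKO 2) to 1.80 (without WT 2), Atp5k to 0.36 (without KIKO 2) and Atp5e from 0.14 (without WT 2) to 1.07 (without WT 1). Exons of Atp5f1 overlap Wdr77 and Gm42890 on the opposite strand.

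The genes that copy and transcribe the mitochondrial genome were low but measurable. Polg, the catalytic subunit of the mitochondrial DNA polymerase, had 46.2 and 58.4 CPM in WT 1 and WT 2 and 88.0, 110.7 and 70.2 CPM in KIKO 1, KIKO 2 and KIKO 3. Polrmt, the mitochondrial RNA polymerase, had 13.8 and 17.2 CPM in WT and 18.7, 51.9 and 30.1 CPM in KIKO. Neither overlapped between the genotypes, and the log2 fold changes were 0.77 (SE 0.40, unadjusted p = 0.0840) and 1.11 (SE 0.60, unadjusted p = 0.0985), both with an adjusted p of 0.9999 in edgeR. Exons of Polg overlap Fanci on the opposite strand. Grsf1, an RNA-binding protein of mitochondrial RNA granules, had 54.1 and 24.0 CPM in WT and 14.8, 19.1 and 26.1 CPM in KIKO, a log2 fold change of -0.96 (SE 0.55), and the genotypes overlapped. The estimate for Grsf1 was -0.28 without WT 1 and -1.45 without WT 2, and that for Polrmt was 0.62 without KIKO 2. With all 5 libraries, none of the differences in these nuclear genes passed the test.

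Among the 5 nuclear genes whose pattern over the 5 libraries was most like that of the summed mitochondrial genes were 2610507B11Rik, Rnaset2a, Picalm and Ndfip2. Likeness was the root mean square difference between log2 levels, each centered on its mean over the libraries, among 3955 genes with a mean of at least 50 CPM. It was 0.048 for 2610507B11Rik, 0.067 for Rnaset2a, 0.079 for Picalm and 0.081 for Ndfip2, where the SD of the mitochondrial sum itself over the libraries was 0.53. The points are 5 libraries that share their depth and makeup with each gene, so this is a description of these libraries. No nuclear respiratory chain gene was among the 5.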

How the data were processed

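The study measured polyadenylated RNA of mouse cerebellum by sequencing. The submitters' processing notes name HISAT2, featureCounts, DESeq2 and mm10, with no versions; the settings for strand and for reads matching several places were not given in the sources used here. A stranded library kit is named in the labels, and single-end Digital mRNA-seq in the study's methods. The authors trimmed reads with Trimmomatic, aligned them and counted them per gene. The authors deposited raw read counts per gene, used for every level and for the edgeR and DESeq2 tests, and log2 normalized values, the log2 of size-factor scaled counts plus 1, against which the counts were checked (all values returned within 0.01 counts) and which limma used as an alternative. In each table, 2 columns of per-sample values that match no sample label were not used.

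Libraries were grouped by genotype label. Genes were kept by edgeR's filterByExpr (10889 of 31053; 30934 IDs, or 99.6%, had a symbol), scaled by TMM and tested with edgeR 4.0.16 (quasi-likelihood, two-sided, genotype only, Benjamini-Hochberg over all genes tested) in R 4.3.3. Total counts of 1013107 to 1351339 per library, and 2 against 3 libraries, set the precision. DESeq2 1.42.0, limma 3.58.1, other scalings, filters, a replicate block and leaving out each library were alternatives; the test was tried on simulated counts. Nuclear copies were sought by exact matching of 75-base windows to GENCODE M21 (GRCm38) transcripts, with annotation credited to GENCODE. The rule for named genes was all 10 members, the other mitochondrial genes with a count, up to 3 genes of smallest p per nuclear list and the 5 genes most alike; some results under this rule are not reported here. The members and lists were chosen with earlier results of these data known.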

Additional observations from a re-analysis of the deposited data

How the results depend on the processing

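In the 14 alternatives tried, the 10 genes gave 0 calls except without KIKO 2, so leaving out single libraries gave 0 to 2 of them (2 being mt-Cytb and mt-Nd5). The difference in their summed share, -0.41 points, ranged from -2.06 (without WT 1) to 1.24 (without WT 2). Leaving out single libraries moved the count over all genes, 131, to between 56 (without WT 1) and 669 (without KIKO 2), and the count over the 97 nuclear genes to between 0 and 7 (without KIKO 2). Keeping every gene with a count gave 383 genes and 1 nuclear gene, Atp5f1. Leaving out both libraries numbered 2, an alternative chosen after seeing the data, gave 911 genes and 9 nuclear genes, with the lone WT library assumed to vary like the others. Where mt-Nd3 or Ndufs8 was too low to be tested, no value was obtained.

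A fit that took replicate number as a block called 271 genes (109 higher, 162 lower), among them 2 nuclear genes, Atp5f1 and Mterf4, and 0 of the 10 genes. The WT and KIKO libraries share only a number. Correlations of deviations were 0.17 for the pair numbered 1 and 0.23 for the pair numbered 2, but also 0.205 for WT 1 with KIKO 3. With only 2 WT libraries, their deviations mirror each other, so these values are not independent. No pairing was drawn from the numbers.

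Estimates of log2 fold change that turned in sign were those of mt-Nd1 at -0.33 without WT 1 and -0.39 without KIKO 2, mt-Co1 at -0.26 and -0.27 in the same 2 settings, mt-Nd3 at -0.27 without WT 1, and mt-Nd4 at 0.031 and mt-Nd5 at 0.34 without WT 2. For mt-Cytb they were -0.013 with every gene with a count, -0.006 with at least 10 counts in every library, -0.17 in limma, -0.48 without WT 1, -0.91 without KIKO 2 and -0.22 without both libraries numbered 2. The others were mt-Nd6 at -0.13 and Cox7b at -0.054 without KIKO 2, Sdhc at 0.08 without KIKO 1 and 0.22 without KIKO 3, and Ndufc2 at -0.075 and Uqcrb at -0.058 without both libraries numbered 2. At the other end of the range from leaving out single libraries, estimates reached 0.544 for mt-Nd1, 0.781 for mt-Co1, 1.743 for mt-Nd3, 0.657 for mt-Cytb and 1.874 for mt-Nd6 without WT 2, -0.552 for mt-Nd4, -0.811 for mt-Nd5 and -1.623 for Sdhc without KIKO 2, and 0.763 for Cox7b without KIKO 3. The cause was not tested. At 1013107 to 1351339 counts per library, mt-Co2, mt-Co3 and mt-Atp6 passed the count filter in few settings (mt-Atp6) or only where every gene with a count was kept, and then with SEs of 1.55 or more.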
